A study of Mus musculus with 4 samples.

Results

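Of the 145453 distal regions that the authors listed in nuclei of the mouse mammary gland, 1062 (0.73%) were about equally open in all 5 epithelial groups of nuclei. A distal region is a 1000-base interval on the authors' list of distal regions, which is separate from their list of promoter regions. The members were selected on their measured levels. Reads of the listed nuclei of all libraries were summed over 2 deposited classes for each of 5 groups, named B (classes 1 and 8), L (classes 3 and 7), M (classes 2 and 11), FL (classes 5 and 9) and FB (classes 4 and 12). Each region's reads were divided by the group's reads in all distal regions and scaled to 1000000 reads, which gives CPM. A region was kept when it had at least 10 CPM in every group and its largest group level was under 1.5 times its smallest. At least 10 CPM in all 5 groups was met by 7648 regions, so the members were 13.9% of the regions open throughout, and the other 6586 served as the regions of comparison. The evenness of the members across the 5 groups is thus the choice itself and not a result.

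Single-nucleus ATAC-seq, which reads open chromatin from where the Tn5 enzyme inserts adapters and tells nuclei apart by barcodes, was run on wild-type CD1 mice, an outbred strain. The sorted cells were EpCAM-positive and lineage-negative mammary cells of fetuses at embryonic day 18 and of adults at 8 weeks, with 2 biological replicates, and so 2 libraries, at each stage. The authors kept 7846 nuclei in 14 numbered classes without names, and 7290 of them lie in the 5 groups. The strain, the sort and the tissue were shared by all groups, while B, L and M were almost wholly adult (10, 9 and 10 fetal nuclei among 1060, 1735 and 2086) and FL and FB almost wholly fetal (19 and 6 adult nuclei among 1594 and 815).

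Distal open regions are mostly enhancers, silencers and insulators, whose opening by sequence-specific factors usually differs between cell types. Regions open in every cell type are often of other kinds: promoters rich in the dinucleotide CpG, which general factors such as SP1, NRF1, NFY and ETS proteins keep open, and sites of CTCF, the insulator protein that anchors chromatin loops with cohesin. The mammary epithelium consists of basal (myoepithelial) cells and of luminal progenitor and mature luminal cells, which arise from fetal mammary cells.

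The members below hold a transcription start site and are shown by the 250 bases before that site, because start sites and their base composition are measures the choice did not use and in which the members differed from other distal regions. Sequences are from RefSeq on GRCm38.p6 (mm10), read 5′ to 3′ on the gene's strand. Capitals mark GGGCGG, the box of SP and KLF factors, or its reverse complement CCGCCC, with overlapping matches included. Ing1 was among the most open members, Tgif1 and Kdm4c among the most even, Stag1 encodes a cohesin subunit, and Gata3 encodes a luminal factor whose region fell in class 6.
Ing1 (chr8:11558160-11558409, + strand): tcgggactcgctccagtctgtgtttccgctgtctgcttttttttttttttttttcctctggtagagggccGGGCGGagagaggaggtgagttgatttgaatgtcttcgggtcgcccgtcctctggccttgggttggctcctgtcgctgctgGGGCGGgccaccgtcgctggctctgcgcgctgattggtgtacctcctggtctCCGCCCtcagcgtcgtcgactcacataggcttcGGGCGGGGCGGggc
Tgif1 (chr17:70851211-70851460, - strand): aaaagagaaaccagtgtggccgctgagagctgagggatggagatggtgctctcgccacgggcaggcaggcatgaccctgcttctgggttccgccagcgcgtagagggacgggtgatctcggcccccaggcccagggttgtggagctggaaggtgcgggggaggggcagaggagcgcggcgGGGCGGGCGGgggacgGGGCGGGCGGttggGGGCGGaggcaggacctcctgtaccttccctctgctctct
Stag1 (chr9:100643198-100643447, + strand): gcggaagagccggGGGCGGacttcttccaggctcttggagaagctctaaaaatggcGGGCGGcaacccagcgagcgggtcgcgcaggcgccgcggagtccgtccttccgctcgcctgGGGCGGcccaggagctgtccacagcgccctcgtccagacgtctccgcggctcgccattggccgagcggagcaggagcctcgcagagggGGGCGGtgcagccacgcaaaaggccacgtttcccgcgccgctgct
Kdm4c (chr4:74251629-74251878, + strand): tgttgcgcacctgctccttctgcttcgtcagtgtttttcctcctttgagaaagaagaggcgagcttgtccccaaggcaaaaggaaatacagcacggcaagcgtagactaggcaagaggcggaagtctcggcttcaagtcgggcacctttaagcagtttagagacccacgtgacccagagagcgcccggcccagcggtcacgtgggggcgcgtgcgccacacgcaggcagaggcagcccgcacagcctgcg
Gata3 (chr2:9878601-9878850, - strand): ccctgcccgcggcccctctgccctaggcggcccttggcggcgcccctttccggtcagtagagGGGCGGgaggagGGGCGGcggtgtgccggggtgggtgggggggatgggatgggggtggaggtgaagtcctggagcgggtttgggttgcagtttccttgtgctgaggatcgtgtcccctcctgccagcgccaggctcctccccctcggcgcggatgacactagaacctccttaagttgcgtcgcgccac
The Ing1 and Tgif1 stretches hold 5 such boxes each, Stag1 holds 4, Gata3 holds 2 and Kdm4c holds none. The GC content of the full 300-base windows, which add 50 bases after the start, was 63.0% for Ing1, 68.7% for Tgif1, 73.7% for Stag1, 64.7% for Kdm4c and 67.3% for Gata3.

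Reads of listed nuclei in distal regions numbered 2427372 to 7777521 per library, and 2318194 (B) to 5867946 (M) per group. No barcode was shared between libraries. Marker genes, measured as reads over the gene span with 2000 bases on each side, were highest in B for 9 of 10 basal genes, in L for 6 of 8 luminal progenitor genes and in M for 6 of 8 mature luminal genes. No fetal group had a marker list of its own. The summed basal markers stood at 619.5 CPM in FB and 440.6 CPM in FL, and the summed general luminal markers at 121.2 CPM and 276.1 CPM. Class 6, which the choice of members did not use, had the highest level of all 10 stromal markers (summed 1091 CPM, against 164.6 to 282.7 CPM in the 5 groups) and is called stromal-like. The same 213 nuclei passed the EpCAM sort, and their summed general luminal markers were at 39.43 CPM, the lowest of all. Their mature luminal (427.1 CPM) and basal (350.9 CPM) sums lay within the ranges of the 5 groups. Their endothelial (190.5 CPM) and immune (85.55 CPM) sums were the highest, beside at most 180.4 and 72.79 CPM in the 5 groups. The part of such nuclei in the class 6 values below was not tested. Classes 10, 13 and 14 were also left out of the choice.

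The mean of the 5 group levels had a median of 35.0 CPM over the members and ran from 10.9 to 179.1 CPM. The ratio of largest to smallest group level had a median of 1.37 and went down to 1.075. A level of 10 CPM rests on 23.2 reads in B and 58.7 reads in M, so counting error alone moves the ratio of a region near the floor. All regions are of 1 width, so levels compare between regions.

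The most open member, over an end of the span of the zinc finger gene Zfp78 (chr7:6362212-6363211, 97 bases from the nearest start site), had 157.9 CPM in B, 186.5 in L, 155.8 in M, 210.8 in FL and 184.7 in FB. A region within Kat6b (chr14:21500052-21501051, 267 bases from the nearest start site), which encodes a histone acetyltransferase, had 141.9, 204.3, 147.8, 197.9 and 169.8 CPM in the same order. Both were lowest in the adult groups B and M. The third (chr6:122810461-122811460) lies 8098 bases from Slc2a3, a glucose transporter gene, and had 135.9 to 180.4 CPM.
The other 5 of the 8 most open members had means of 136.5 to 143.4 CPM. They include a region in the arrestin-domain gene Arrdc3 (chr13:80885061-80886060), 35 bases from the nearest start site. The rest lie over start sites of the endocytic adaptor gene Ehbp1 (chr11:22286496-22287495), of the lncRNA Gm26901 (chr1:7397472-7398471), of Ing1, a reader of histone methylation (chr8:11557731-11558730), and of Sin3a, the scaffold of a histone deacetylase complex (chr9:57075545-57076544). Ing1 was the most even of these 8, with 125.1 CPM in B, 139.2 in L, 142.0 in M, 148.4 in FL and 139.9 in FB. Its epithelial level by library was 147.5 and 146.1 CPM in the fetal and 149.9 and 127.9 CPM in the adult libraries, so the 2 adult libraries differed more than the 2 stages.

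**Figure D1:**
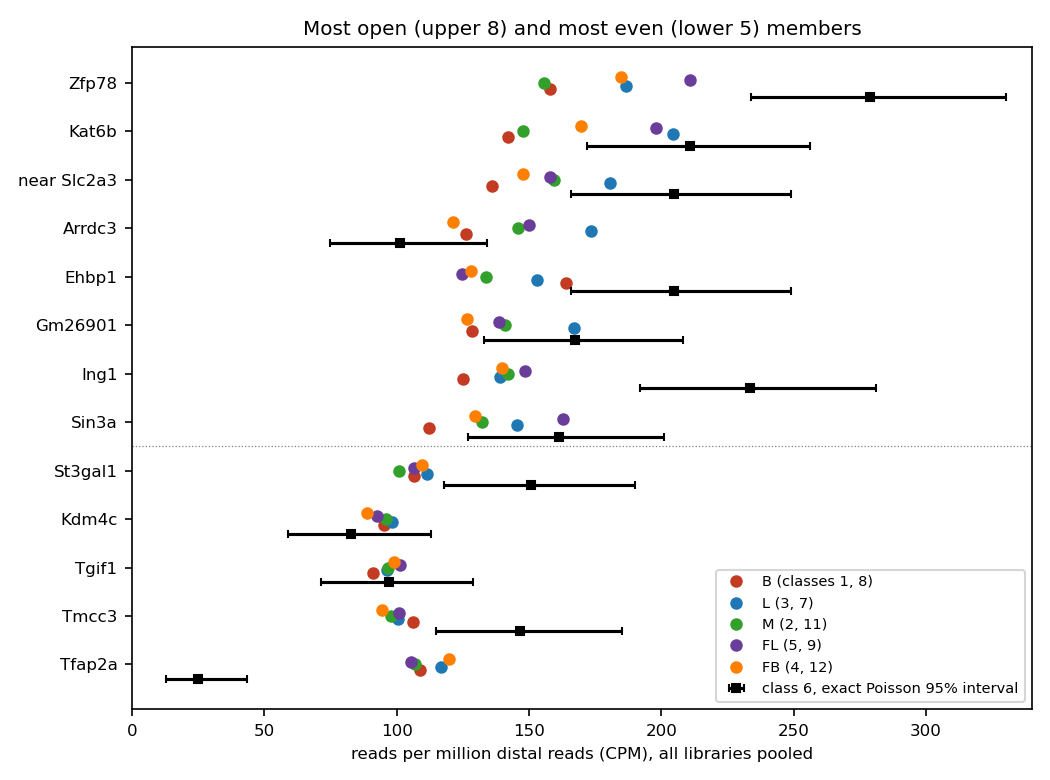
Levels (CPM, horizontal axis) of the 8 most open members and of the 5 with the smallest ratio among members of at least 50 CPM; coloured points are the 5 groups and black squares are class 6 with its exact Poisson 95% interval. The group points of the lower 5 almost coincide, and the class 6 interval lies below all 5 points only at Tfap2a (24.8 CPM).

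Among members of at least 50 CPM the smallest ratio, 1.106, belonged to a region over an end of the span of St3gal1, a sialyltransferase gene (chr15:67176299-67177298). The nearest start site of the windows used here lies 136706 bases away. Its levels were 106.5, 111.6, 100.9, 106.7 and 109.6 CPM in B, L, M, FL and FB. Start site regions of the histone demethylase gene Kdm4c (chr4:74251289-74252288; 88.6 to 98.1 CPM) and of Tgif1, a homeobox repressor gene (chr17:70850673-70851672; 91.0 to 101.2 CPM), followed with ratios of 1.107 and 1.112. A region within Tmcc3 (chr10:94545300-94546299), which encodes a transmembrane coiled-coil protein, had a ratio of 1.125. A region within Tfap2a (chr13:40730738-40731737), which encodes the epithelial factor AP-2α, had 108.7, 116.8, 106.9, 105.4 and 119.6 CPM, a ratio of 1.135. At the edges of the choice, the member in Nup210 (chr6:91075775-91076774) had a ratio of 1.499, and the region at Gm26797 (chr9:122310280-122311279) reached 1.5 and was left out. The member with the smallest group level, in Mprip (chr11:59758783-59759782), had 10.01 CPM there, and the region in Mettl21c (chr1:44041633-44042632), with 9.922 CPM in B, was left out too.

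The share of even regions changed with level, but not in 1 direction. Members made up 16.8% of the regions open throughout at a mean of 10 to 20 CPM, 8.40% at 20 to 30, 12.3% at 30 to 50, 22.9% at 50 to 100 and 38.8% at 100 to 200 CPM, and none of the 6 above 200 CPM. The floor of 10 CPM in every group leaves little room for a large ratio at a mean near 10 CPM. Counting error widens the ratio less at higher levels. The part of both in these shares was not tested. Within the limits set by the choice, L was the highest group for 25.8% of members and FL for 24.7%, while FB was the lowest for 28.0% and B for 25.0%. The log2 of the mean fetal over the mean adult level had a median of -0.025 and ran from -0.48 to 0.48. Between the 2 libraries of a stage, the same region in the same group differed by a median of 0.17 (L) to 0.274 (B) on the log2 scale, over the 308 members of at least 50 CPM. That spread is about as wide in the 977 regions of comparison at that level, at 0.171 to 0.284. The choice was sensitive to single libraries. It gave 996, 723, 911 and 781 regions without fetal replicate 1, fetal replicate 2, adult replicate 1 and adult replicate 2, and kept 856, 488, 688 and 492 of the 1062 members.

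Many members hold a start site although the authors' list calls them distal. A RefSeq start site of the 32851 windows used here lay inside 284 members (26.7%), against 10.3% of the regions of comparison and 2.14% of all distal regions. Start sites of protein-coding genes lay in 20.0%, 6.45% and 0.878% of them. A further 418 members lie within a coding gene without a start site. The other 360 lie outside coding genes, though some can lie in noncoding ones, and are called between genes here. The share with a start site rose with level. It was 9.54% for members of 10 to 20 CPM, beside 7.89% of regions of comparison at that level, and 55.3% for members of 100 to 200 CPM, beside 21.7%. These shares are descriptions over regions, without a test, and a region counts as holding a start site only where the windows have it. The windows can lack starts of known genes. The member 88583 bases from Myc lies 304493 bases from the nearest start site used. The member over an end of Neat1 lies 29326 bases from one. Members counted as without a start site, here and in class 6 below, can thus include some that hold one.

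**Figure D2:**
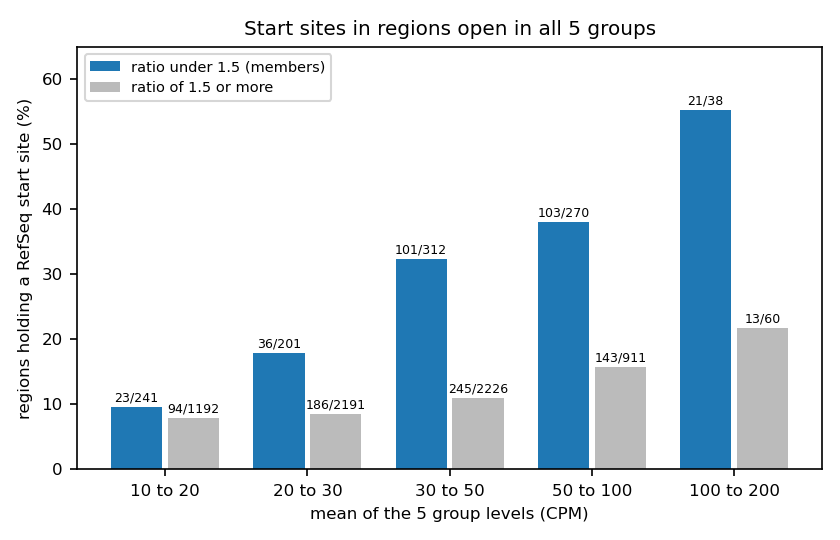
Percentage of regions that hold a RefSeq start site (vertical axis) by the mean of the 5 group levels (CPM), for members (blue) and the other regions open in all 5 groups (grey), with the counts above the bars. The members' bar is the taller at each level, by little at 10 to 20 CPM (9.54% against 7.89%) and most at 100 to 200 CPM (55.3% against 21.7%).

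The sequence around these start sites was mostly rich in CpG. In 247 members, 290 windows of 300 bases around a start site lay wholly inside, for 265 genes, of which 193 are protein-coding and 72 are lncRNA genes. Their median GC content was 63.0%, against 58.7% in the regions of comparison, 51.0% in other distal regions and 62.0% in the authors' listed promoter regions. Windows with at least 55% GC and an observed over expected CpG ratio of at least 0.65 were 59.7% of the members' windows, 40.2% of those in the regions of comparison, 7.20% of those in other distal regions, 61.9% of those in listed promoters and 28.1% of all windows.

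Motif matches were counted on both strands of these windows, and a match is a description of letters, not of binding. The SP and KLF box GGGCGG, in capitals in the sequences above, was in 72.1% of the members' windows, 53.7% of those in the regions of comparison and 35.7% of all windows. The ETS motif CCGGAAGT was in 9.66%, 3.99% and 3.89%, and the NRF1 motif GCGCATGC in 6.21%, 3.85% and 2.71%. The NFY motif CCAATCA was in 13.1%, 10.5% and 7.82%. These 4 letter strings, of factors known from housekeeping promoters, were each more frequent in the members than in either of those sets, and in the listed promoters they were in 67.7%, 8.77%, 5.53% and 10.8% of windows. Among other promoter strings, the E-box CACGTG was in 9.31% of the members' windows against 10.2% in the regions of comparison, and the CRE TGACGTCA in 2.41% against 2.51%. The YY1 motif AAGATGGC was in 3.79% against 2.66%, and ACTACAA, a part of the ZNF143 motif, in 3.79% against 2.96%. These last 2 were thus also more frequent in the members than in the regions of comparison, with 11 windows each. In the listed promoters they were more frequent still, in 4.43% and 4.16% of windows. AGGGGGC, a part of the CTCF motif, was in 17.6% of the members' windows, 14.3% of those in the regions of comparison and 10.6% of all windows. In the listed promoters it was in 17.3%. Of the other strings searched, those below were less frequent in the members' windows than in the regions of comparison, by much or by little. The AP-1 motif TGANTCA was in 7.24% of the members' windows, 11.4% of those in the regions of comparison and 15.6% of those in other distal regions, but in 7.81% of all windows and 5.23% of those in listed promoters. TTGGCA of the NFI motif was in 7.93% of the members' windows, 14.1% of those in the regions of comparison and 14.1% of all windows. The RUNX motif TGTGGTTT was in 0.69%, 2.22% and 1.78%, and TATAAA, the TATA box, in 5.17%, 8.28% and 13.6%. The TEAD motif ACATTCC was in 1.72%, 4.14% and 3.85%, and the FOX motif TGTTTAC in 2.76%, 3.4% and 3.65%. The SOX motif AACAATG (1.72%, 1.78% and 3.78%) and the GATA motif AGATAAG (1.38%, 1.48% and 3.04%) were about as frequent in the members' windows as in the regions of comparison. The GRHL motif AACCGGTT was in 1 of the members' windows (0.345%, against 0.444% and 0.146%). The GC content of the sets differs as given above, and its part in these shares was not tested. Sequence was at hand only around the start sites of the windows used, so the 778 members without one of these have no motif counts.

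Reads lay in a sharp peak inside the members in each group. The highest 50-base bin of the summed profile, 50 to 100 bases from the region's centre in 5 groups at members with a start site, was 24.3 (B) to 31.1 (FB) times the flanks at 1500 to 2000 bases. At members without a start site the same ratio was 17.4 (B) to 20.0 (FB). In class 6 it was 31.3 and 19.2. In the regions of comparison the ratio was 17.0 to 19.3 in the 5 groups and 13.7 in class 6, below each of them. The read positions were used as deposited, and the offset of the peak from the centre was found in all 3 sets.

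**Figure D3:**
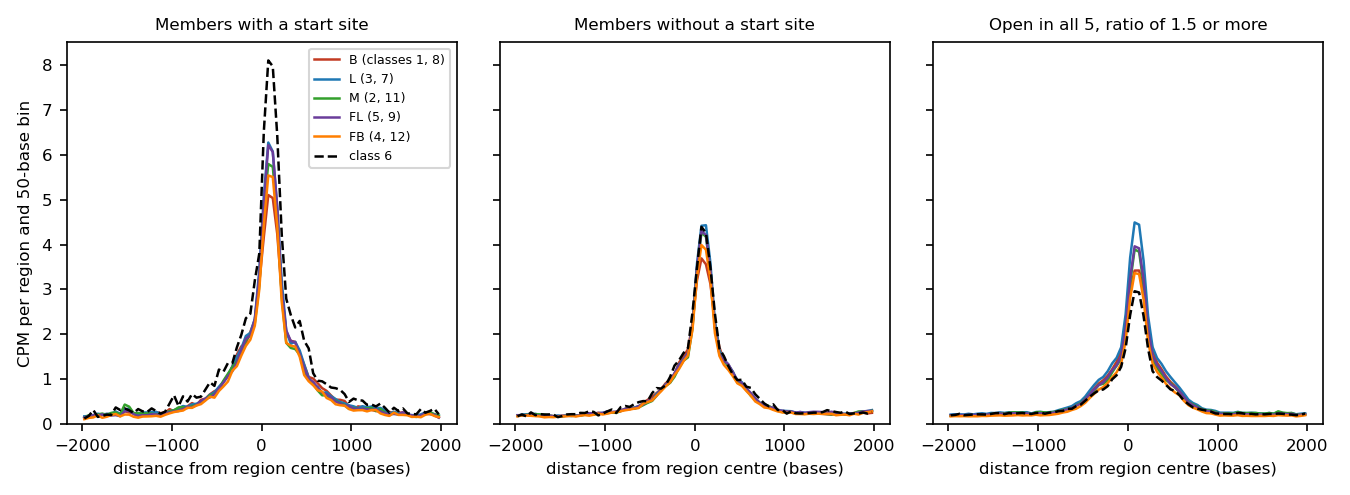
Reads as CPM, per region and 50-base bin (vertical axis), by distance from the region's centre (bases), for members with a start site, members without one and the other regions open in all 5 groups; coloured lines are the 5 groups and the dashed line is class 6. The dashed line tops the others at members with a start site (8.10 against at most 6.27), runs among them at members without one, and is the lowest in the right panel (2.96).

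Classes outside the 5 groups show the members in nuclei that did not choose them. In the stromal-like class 6 the members took 4.95% and 5.10% of distal reads in fetal replicates 1 and 2 and 5.42% and 4.91% in adult replicates 1 and 2, or 5.10% ± 0.23 (SD, n = 4 libraries). The pooled nuclei of the 5 groups gave 4.56%, 4.30%, 4.55% and 4.31% in the same libraries, or 4.43% ± 0.146 (SD, n = 4). The class 6 value was above the epithelial one in each of the 4 libraries, and the ranges do not overlap. Both are shares of distal reads and depend on that total. With totals of all reads the members' median log2 difference in class 6, tested below, moved from 0.09 to -0.28. The regions of comparison as a whole went the other way, with 18.7% ± 1.12 of distal reads in class 6 and 23.6% ± 1.23 in the 5 groups (SD, n = 4). Class 6 rested on 23, 33, 82 and 75 nuclei in these libraries. In class 13, nearly all fetal, the members took 5.02% and 4.73%, which also lie above every single group and library of the 5 groups. In the adult classes 10 and 14 they took 4.22% to 4.50% of distal reads, within the 4.14% to 4.67% of the single groups and libraries.

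**Figure D4:**
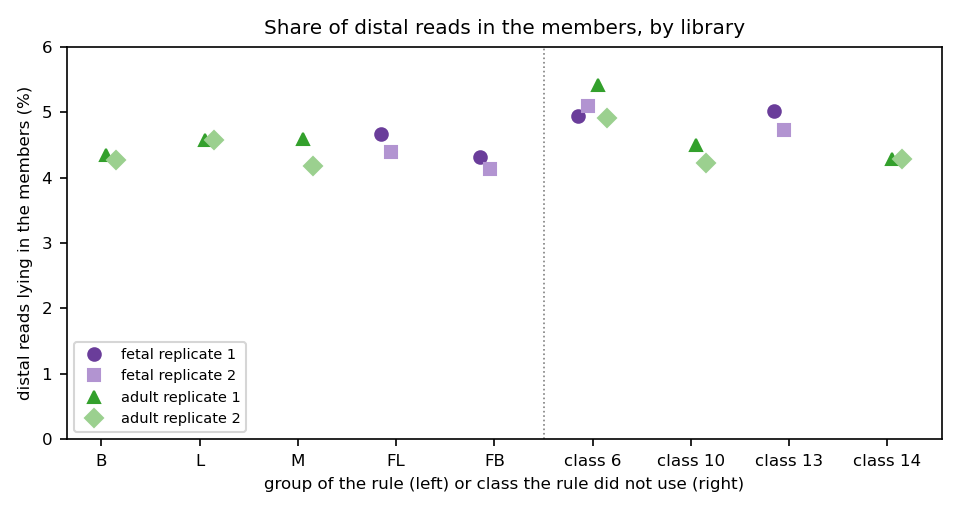
Percentage of distal reads that lie in the members (vertical axis), by group or class (horizontal axis) and library (symbol); fetal libraries are purple and adult libraries green, and classes the choice did not use are to the right of the dotted line. The 4 class 6 points, from 4.91% to 5.42%, lie above all 10 points of the 5 groups, as do both class 13 points (5.02% and 4.73%).

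Region by region, the level in the left-out classes was within 1.5 times the mean of the 5 groups for 74.2% of members in class 10 (63.0% of the regions of comparison), 61.6% in class 14 (56.3%), 58.1% in class 13 (48.4%) and 41.9% in class 6 (29.3%). Median reads per member were 21, 11, 12.5 and 18, and per region of comparison 18, 10, 9 and 9. Counting error can thus lower each of these shares, and more so in the regions of comparison. Its part in the differences was not tested. In class 6, 20.2% of members were below 0.5 times the epithelial mean, 11.9% were above 2 times and 45 had no read. Of the regions of comparison, 43.1% were below 0.5 times and 8.69% above 2 times. Members with a start site had a median of 63.0 CPM in class 6, beside a median mean level of 46.5 CPM in the 5 groups, and 7.39% of them fell below 0.5 times. For members within genes and between genes both class 6 medians were 31.0 CPM, and 24.2% and 25.6% fell below 0.5 times. Regions with a start site took a larger share of reads in class 6 in each of the 4 libraries, members and regions of comparison alike. Members with a start site took 1.95%, 2.06%, 2.11% and 1.86% of class 6 distal reads in fetal replicates 1 and 2 and adult replicates 1 and 2, and 1.55%, 1.44%, 1.52% and 1.44% of epithelial ones. The other members differed less. Those within genes took 1.68% to 1.85% in class 6 and 1.58% to 1.68% in epithelium, and those between genes 1.33% to 1.45% and 1.27% to 1.35%. The 681 regions of comparison with a start site took 3.03%, 3.01%, 3.11% and 2.86% in class 6, and 2.77%, 2.55%, 2.82% and 2.65% in epithelium.

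**Figure D5:**
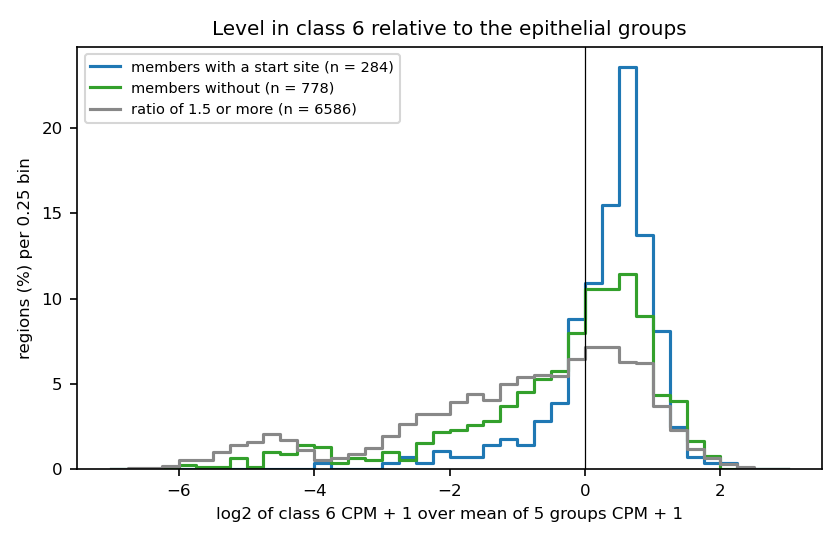
Distribution of the log2 ratio of the class 6 level to the mean of the 5 groups (1 CPM added to both; horizontal axis) as the percentage of regions per bin of 0.25, for 284 members with a start site, 778 without and 6586 other regions open in all 5 groups. The members with a start site peak to the right of 0 with a short left tail, and the other regions have the broadest left tail.

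Class 6 was then tested against the pooled epithelial nuclei of the same library over 70428 distal regions with edgeR. All 1062 members had enough reads to be tested. The epithelial reads of this test are those that chose the members, and only the class 6 reads are independent of the choice. At an adjusted p under 0.05, 39 members (3.67%) were lower in class 6, where 1.07% of all regions tested were lower, and 7 (0.659%) were higher, where 1.32% of all regions tested were higher. Of the regions of comparison, 7.61% were lower and 0.926% higher. The members' median log2 difference was 0.09, and that of the regions of comparison was -0.85. Over all regions tested it was -1.26, or -0.19 with the 35.6% of regions that had no class 6 read set to a bound of 3 reads, which left the other medians as they were. Library by library, the members' median log2 ratio was -0.71 in fetal replicate 1, where class 6 had 23 nuclei, and 0.05, 0.10 and 0.03 in fetal replicate 2 and adult replicates 1 and 2 (1 CPM added). Calls were more frequent at higher levels. Among members of at least 50 CPM 31 of 308 were lower, beside 256 of 977 regions of comparison. Members with a start site gave 4 lower and 2 higher calls of 284. These counts rest on all 4 libraries. Without adult replicate 1 or without adult replicate 2 there were 10 lower and 2 higher members, without fetal replicate 2 17 and 2, and without fetal replicate 1 30 and 10. The counts also moved with the scaling and the test. With TMM scaling 198 members were lower and none higher (8360 lower and 159 higher over all regions, against 755 and 929 here), with DESeq2, which changes both the scaling and the test, 290 and none (9977 and 773), and with totals of all reads 56 and 1 (1434 and 590). All 39 lower members were also lower under these 3 alternatives. The median of all regions moved to -2.53, -2.07 and -1.60 under these alternatives, and that of the members to -1.32, -1.16 and -0.28. As all 3 moved the differences downwards, that all 39 lower calls were kept is no support for them. Of the 39, 30 were kept without the library block, 10 without adult replicate 1 and 10 without adult replicate 2.

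Of the 39 lower members, 9 had no read in class 6 at all, where 3 reads would make 6.2 CPM. The 5 lowest fitted log2 differences, by which these regions were chosen for naming, are all of this kind, and such a fitted value has no defined size. They met both the 10 CPM floor and the minimum of reads for the test through epithelial reads alone. The first, 16044 bases from the ribosomal protein gene Rpl29 (chr9:106411846-106412845), had 61.4, 50.5, 64.8 and 65.2 CPM in the epithelial nuclei of the 4 libraries and was at least 9.71-fold lower in class 6 (edgeR adjusted p = 0.000458). A region 36842 bases from Igsf3, an immunoglobulin superfamily gene (chr3:101499902-101500901), had 67.6, 68.0, 60.1 and 57.6 CPM and was at least 10.2-fold lower (edgeR adjusted p = 0.000307). Regions in Pygb, a glycogen phosphorylase gene (chr2:150816429-150817428), in Eya2, a transcriptional co-activator gene (chr2:165664502-165665501), and 47582 bases from the TGF-β receptor gene Tgfbr2 (chr9:116222945-116223944) were at least 7.48-, 6.10- and 5.82-fold lower. These smallest folds set class 6 at 3 reads as if reads were independent, so they can be too large. Of the called members with a few class 6 reads, the one nearest to Igsf8, named here after its values were seen, had 109.2 CPM in epithelium and 2 reads in class 6, or 4.13 CPM (exact Poisson 95% interval 0.5 to 14.9). All 4 epithelial libraries had reads in the 5 regions, and none of the 4 class 6 libraries had any. The edgeR adjusted p of the Igsf3 region stayed under 0.05 whichever library was left out. It rose to 0.0728 at Rpl29 without adult replicate 2, to 0.0984 and 0.204 at Pygb without adult replicates 1 and 2, to at most 0.325 at Eya2 and to at most 0.374 at Tgfbr2, these last also without fetal replicate 2.

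Regions at genes of epithelial transcription factors were among the 39 as well. The start site region of Gata3 (chr2:9877995-9878994), which encodes a GATA factor of luminal cells, had 107.1, 121.0, 104.2 and 90.8 CPM in the epithelial nuclei of fetal replicates 1 and 2 and adult replicates 1 and 2, and 110.4 CPM in the basal group B. In class 6 it had 0, 2, 4 and 4 reads, or 20.7 CPM (exact Poisson 95% interval 9.91 to 38.0), 5.12-fold below the mean of the 5 groups. The edgeR log2 difference was -2.42 ± 0.587 (SE), with an adjusted p of 0.00467. Tfap2a, even to a ratio of 1.135 in epithelium, had 0, 6, 0 and 6 reads in class 6, or 24.8 CPM (12.8 to 43.3), 4.50-fold lower, with an edgeR adjusted p of 0.00434. For Gata3 the adjusted p of edgeR was 0.0542, 0.0605 and 0.0907 without fetal replicate 2, adult replicate 1 and adult replicate 2. For Tfap2a it was 0.327 without adult replicate 1, 0.0526 without adult replicate 2 and 0.0613 without the library block.

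The 5 rises named here had the largest fitted log2 differences. A region over the start site of the lncRNA Gm34455, 1122 bases from the MAP kinase phosphatase gene Dusp1 (chr17:26503470-26504469), had 88.9 CPM in class 6 (64.3 to 120), 4.57 times the mean of the 5 groups, and 18.2 to 26.3 CPM in the epithelial libraries (edgeR adjusted p = 0.0401). Regions in the TNF receptor gene Tnfrsf1a (chr6:125354107-125355106), in the intermediate filament family gene Iffo2 (chr4:139598498-139599497), 12221 bases from the cyclin gene Ccnl1 (chr3:65974250-65975249) and over a start site of the phospholipase gene Pnpla8 (chr12:44268519-44269518) were 3.39, 3.49, 2.62 and 2.42 times the epithelial mean. By this ratio a called region nearest to Nufip1, at 2.79 times, ranks above the last 2. Each of these 5 had class 6 reads in all 4 libraries. None of the 7 higher members was called under TMM or DESeq2, and Pnpla8 changed sign under TMM (log2 -0.08). With totals of all reads 1 of the 7 calls was kept, that of Ccnl1 (edgeR adjusted p = 0.0441). With no filter on reads 2 of the 7 were kept. The Ccnl1 call was kept whichever library was left out, that of Pnpla8 was lost without fetal replicate 2 (edgeR adjusted p = 0.119), and those of Dusp1, Tnfrsf1a and Iffo2 without fetal replicate 2, adult replicate 1 or adult replicate 2 (0.107 to 0.455), that of Tnfrsf1a also without fetal replicate 1 (0.0728).

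Genes on 6 lists were looked up as the gene holding a member, nearest to it, or starting in it. Mammary lineage genes had 10 members (0.942% of members, against 0.607% of the regions of comparison and 0.688% of all distal regions) at 4 genes, of which 2, both in Gata3, were lower in class 6 and none higher, where 3.67% of all members and 1.07% of all regions tested were lower. Their median class 6 log2 difference was -2.25, or -1.47 with the 3 members of no class 6 read at the bound of 3 reads. Beside Gata3, a start site region of Runx1 (chr16:92696759-92697758) had 84.7 to 100.8 CPM in the 5 groups and 51.7 CPM in class 6 (33.4 to 76.3), and a region in Nfib (chr4:82505579-82506578) had 68.2 to 93.6 CPM and 97.1 CPM in class 6 (71.4 to 129). Runx1 and Nfib encode transcription factors, and neither region passed the edgeR test, with Runx1 lower under TMM (adjusted p = 0.0115) and DESeq2 (adjusted p = 0.00135). Pan-epithelial genes had 9 members (0.847%, against 0.820% and 0.406%) at 6 genes, with 1 lower in class 6 and a median of -0.76. A second Tfap2a region (chr13:40722489-40723488) had 60.3 to 85.4 CPM in the 5 groups and 45.5 CPM in class 6. A region in the integrin gene Itgb6 (chr2:60688634-60689633) had 37.0 to 53.2 CPM, and 0, 0, 16 and 4 reads in class 6.

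Genes for circadian and growth control had 9 members (0.847%, against 0.941% and 0.452%), none called in class 6, with a median of 0.31. The most open of them lie 88583 bases from Myc (chr15:62078944-62079943; 96.3 to 130.3 CPM in the 5 groups), 18066 bases from Fos (chr12:85454825-85455824; 76.4 to 99.3 CPM) and 108611 bases from Jun (chr4:95160833-95161832; 58.4 to 81.0 CPM). In class 6 they had 47.5, 179.8 and 70.3 CPM. Widely expressed genes had 4 members (0.377%, against 0.228% and 0.135%): the start site regions of the elongation factor gene Eef1a1 (chr9:78481323-78482322; 113.8 to 141.2 CPM) and of the lactate dehydrogenase gene Ldha (chr7:46845206-46846205; 31.3 to 45.6 CPM) and a region in the 14-3-3 gene Ywhaz (chr15:36792026-36793025; 78.5 to 106.3 CPM) were the most open. Genome organisation genes had 3 (0.282%, against 0.167% and 0.0976%), at the start sites of Stag1 (chr9:100642779-100643778; 93.2 to 130.4 CPM), of the nuclear lamina gene Lmna (chr3:88502761-88503760; 97.3 to 113.9 CPM) and of the lncRNA Gm33628, 34426 bases from Yy1 (chr12:108757520-108758519; 44.0 to 64.1 CPM). None of these passed the edgeR test in class 6, where Eef1a1 had 150.8 CPM, Stag1 173.6 CPM and Lmna 109.5 CPM. Stromal genes had a single member, 165925 bases from Dcn (chr10:97312576-97313575), with 24.4 to 31.7 CPM in the 5 groups and 51.7 CPM in class 6 (33.4 to 76.3). It did not pass the test either. Among the regions of these lists, those at Myc, Ywhaz and Lmna and the second at Tfap2a were called lower with both TMM and DESeq2, that at Eef1a1 with DESeq2, and that at Fos was called higher with a mean of at least 50 reads and without the library block. By share, stromal genes had 0.0942% of members, 0.137% of the regions of comparison and 0.241% of all distal regions.

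Members had few co-accessible partners. In the authors' deposited table of Cicero scores, which measure how far 2 regions are open in the same nuclei, 63 members (5.93%) had a partner at a score of at least 0.25, against 33.3% of the regions of comparison and 14.6% of all distal regions. A partner on the promoter list was found for 4.14% of members, 8.53% of the regions of comparison and 2.21% of all distal regions. A median of 87.5 pairs per member was scored, beside 89 in the regions of comparison. The scores rest on how regions vary together across the same nuclei, and the choice kept regions that vary little between the 5 groups. The choice itself thus favours few partners, so the difference is a description and not a separate property of the members. The member with the most partners (chr19:5844883-5845882) holds an end of Neat1, the lncRNA of nuclear paraspeckles, and had 10 partners, 7 of them promoters. It had 98.6 to 141.8 CPM in the 5 groups and 121.9 CPM in class 6 (92.8 to 157). It was not called in the reported fit but was called lower with TMM (log2 -1.61, edgeR adjusted p = 0.0326). Regions in Fstl3, which encodes a follistatin-like secreted protein (chr10:79779817-79780816), and in Kdm6b, a histone demethylase gene (chr11:69418366-69419365), had 6 partners each. Those 35420 bases from the cytokine gene Lif (chr11:4307934-4308933) and over the start site of Fkbp5, a co-chaperone of steroid receptors (chr17:28485569-28486568), had 5 each. With TMM the Lif region was called lower in class 6 (edgeR adjusted p = 0.0262), and the Kdm6b and Fkbp5 regions were not called. The Fstl3 region had 103.1 to 140.7 CPM in the 5 groups and 47.5 CPM in class 6, with an edgeR adjusted p of 0.0689. It was called lower with TMM, DESeq2, totals of all reads and a mean of at least 50 reads (adjusted p of 0.000573, 0.000612, 0.00878 and 0.0189). Partners that were members themselves were found for 2 members.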

How the data were processed

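Reads of single-nucleus ATAC-seq libraries were deposited as positions with barcodes. The submitters' processing notes name Bowtie2, MACS2, bedtools and mm10, without roles. Class numbers and counts of reads per nucleus were read from the authors' deposited table, and co-accessibility is the authors' deposited Cicero score. Reads of 163 to 200 bases (median 195) were counted in each distal region they overlapped by at least 1 base. Both ends of a fragment are separate reads and cells share a library, so intervals cover counting error only. A group's total is the sum over its distal regions.

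The class 6 test used edgeR 4.0.16 in R 4.3.3 (quasi-likelihood, Benjamini-Hochberg) on 8 sums of counts, class 6 and the pooled classes of the 5 groups in each of 4 libraries, with the library as a block, since each library gives both sums. The correlation of their deviations was 0.0686 to 0.148. A mean of at least 10 reads per sum was required. The SE is the absolute log2 difference over the square root of F. TMM scaling had been planned, but its factors ran from 0.555 to 3.41 on these sparse sums. On simulated data the 67336 regions without change had a median log2 of -0.53 with TMM and -0.08 with totals of distal reads. That simulation gave class 6 and epithelium the same composition apart from balanced changes, so the totals were its true scale by construction. It cannot show which scaling is right where the 2 differ broadly. The totals were used, and this was decided after both fits had been seen.

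Start sites and sequences are from RefSeq (GRCm38.p6), in 32851 windows. Named regions are the 8 most open members, the 5 most even of at least 50 CPM, the 5 first falls and rises called in class 6 in the order of the fitted log2 difference, those at the edges of the choice, up to 3 per gene list, and the 5 with the most partners; chromosome 18 was left out of the naming. The members and lists were chosen with earlier results of these data known. No doublet caller was run. Alternatives were other limits, midpoint counting, other scalings and filters, DESeq2 1.42.0, no block, and leaving out each library. Python 3.11.15 was used for counting and plots.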

Additional observations from a re-analysis of the deposited data

How the results depend on the processing

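A stricter planned ratio limit left 166 regions and a limit of 2 left 3306, against 1062. CPM floors of 5 and 20, midpoint counting, TMM-scaled levels, totals of all reads and totals of distinct distal reads (chosen after seeing the data) gave 738 to 1416 regions, and leaving out a library gave 723 to 996. Of the 1062 members, TMM-scaled levels kept 851, midpoint counting 907, totals of all reads 1000 and a floor of 20 CPM 738. A floor of 5 CPM and totals of distinct distal reads kept all 1062.

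Regions called in class 6 numbered 1684 of 70428. There were 8519 with TMM, 10750 with DESeq2 and 2577 without the replicate block (the library, which pairs the sums), and 320 to 1503 with a library left out. Members called lower numbered 39, and 198, 290 and 67 with TMM, DESeq2 and a mean of at least 50 reads, and 10 to 30 with a library left out. Members called higher numbered 7, and 0, 0, 1, 35, 2, 23 and 4 with TMM, DESeq2, totals of all reads, a mean of at least 50 reads, no filter, no replicate block and midpoint counting, and 2 to 10 with a library left out. Without the replicate block 42 members were lower, 30 of them among the 39. The members' median of 0.09 became -1.32 with TMM and -1.16 with DESeq2. It lay between -0.28 and 0.21 under the other settings. Of the 23 named members above 0, 19 turned negative with TMM, 18 with DESeq2 and 8 with totals of all reads. A call was involved in 5 of these turns: Pnpla8 (-0.08, TMM) and, with DESeq2, Kat6b (-0.97), Gm26901 (-1.03), Sin3a (-1.05) and Eef1a1 (-0.98). Named members not called gained a call in 30 cases over all settings, and called ones lost theirs in 44. TMM and totals of all reads differ from the reported fit in scaling alone, DESeq2 in both scaling and test, and the causes of the other changes were not tested.

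Class 6 has 213 nuclei and 44193 to 193536 distal reads per library, with a median of 18 reads per member. At 10 CPM a member would have 4.84 reads in all of class 6, which limits how far a fall can show.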

Other observations

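Members were spread over the genome, with a median of 914700 bases between the starts of neighbours on a chromosome and 35 of 1042 neighbouring pairs within 10000 bases. The X chromosome held 37 members, 1.30% of its 2851 listed distal regions. On the autosomes the share ran from 0.536% (chromosome 1) to 0.945% (chromosome 7). Of the regions of comparison 1.44% lie on the X chromosome, as do 3.48% of members and 1.96% of all distal regions. The sex of the animals was not used here, and no test was run.

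The microRNA hairpins that lie wholly in members are 4: Mirlet7i (chr10:122985419-122986418), of the let-7 family that restrains growth and pluripotency genes, Mir212 (chr11:75172584-75173583), Mir12181 (chr11:77466592-77467591) and Mir5133 (chr9:62122122-62123121). Further members called lower in class 6, chosen here after their values were seen, lie in the actin-severing gene Gsn (87.3 CPM in epithelium, 8.27 CPM in class 6), in the ephrin gene Efna1 (82.8 and 4.13 CPM), in the myosin gene Myh9 (93.9 and 20.7 CPM) and in a second region of Gata3 (33.7 CPM and no read). The Gsn region lies 29 bases from the nearest start site. Epithelial values are means of the 5 groups.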
